A study of Mus musculus with 24 samples.

Results

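Ovariectomized female mice fed a low-fat diet, F(OVX) + LFD, were compared with intact females on the same diet, F + LFD, across all genes on the array. The groups were chosen by their labels, 4 arrays in each and 8 of the 24 arrays in the series, with the RNA of a different animal on each array. All were C57BL/6J mice, bought at 7 weeks of age, that had ovariectomy or sham surgery after 1 week of acclimatization and were put on LFD (10 kcal% fat) for 14 weeks after 14 days of recovery. Both groups received azoxymethane (AOM, 10 mg/kg), a colon carcinogen, and 3 cycles of 5 days of 1.5% dextran sulfate sodium (DSS) in the drinking water, which injures the colon lining, so neither was a healthy colon. They were killed 75 days after AOM. The methods give 5 animals per group, selected for body weights near the average, whereas the labels give 4, and they do not say whether a piece of colon contained tumor. The comparison answers which colon transcripts differed after removal of the ovaries on LFD. The F + LFD arrays all lay on one slide and the F(OVX) + LFD arrays all on another, each slide scanned once, so slide and surgery cannot be told apart in any value below. The same contrast on a high-fat diet (HFD, 45 kcal% fat), F(OVX) + HFD against F + HFD, came from other animals on those same slides, and therefore shares this limit.

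The ovary is the main source of circulating estradiol and progesterone. Estradiol acts through the nuclear receptors ESR1 and ESR2, which bind estrogen response elements in DNA, and ESR2 is the form usually found in colon epithelium. A piece of colon wall contains epithelium that is renewed from dividing crypt cells, smooth muscle, fibroblasts, fat, immune cells, and the enteric nervous system, whose neurons and glia lie in plexuses between and beneath the muscle layers. Array signal from such a piece cannot tell fewer cells of a type from less RNA per cell.

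Values are log2 quantile-normalized signal unless a fold is named, and are listed for replicates 1 to 4. Before normalization the 75th percentile of the processed signal was 577.1, 357.7, 597.1 and 472.8 scanner units in F + LFD and 445.1, 495, 124.6 and 407.6 in F(OVX) + LFD. F(OVX) + LFD replicate 3 was the dimmest of the 8 arrays, with 40.5% of probes well above background against 47.6% to 58.5% on the others. Correlations between arrays were 0.951 to 0.989 within groups and 0.95 to 0.989 between groups. Xist was between 8.77 and 9.65 on all 8 arrays, and none was well above background for the probes used here for the Y-linked genes Uty, Kdm5d and Ddx3y, while another Kdm5d probe was so on 1 F(OVX) + LFD array. The tissue label was borne out by its markers: all 23 listed epithelial genes passed the filter, and Epcam, which marks epithelium, was 12.5 to 12.93 in F + LFD and 12.59 to 12.77 in F(OVX) + LFD.

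Of 22031 genes tested, 424 (1.92%) were called differentially expressed genes (DEGs) at the study's cut-offs, here applied to limma: 1.5-fold or more, with a p under 0.05 before adjustment. Of these, 105 (0.477%) were higher and 319 (1.45%) lower in F(OVX) + LFD, and 277 carried a gene symbol. Limma gave 639 genes an unadjusted p under 0.05, against the 1102 that evenly distributed p-values would yield. After Benjamini-Hochberg adjustment 0 genes passed, and the smallest adjusted p by limma was 1. The methods' t-test gave 621 genes at p under 0.05 and likewise 0 after adjustment, so "called" below refers to the unadjusted thresholds alone. The groups did not overlap for 213 genes (0.967%) with F(OVX) + LFD above and 165 (0.749%) with it below, and for 36 and 94 of the called genes. By chance alone 1 of the 70 possible assignments of arrays separates the groups in each direction, a larger share than 0.967% or 0.749%. An exact permutation test of 4 against 4 has 70 assignments and cannot give a two-sided p under 0.0286. Groups that do not overlap always give this value, so it is not printed for genes named because they were separated. Of the 319 genes called lower, 124 were well above background on all 4 F(OVX) + LFD arrays and 10 on none, whereas 203 of the 424 DEGs were measured on all 8.

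Genes of enteric neurons had the lowest median change of the 50 gene lists. The median log2 change of its 19 tested members (27 listed) was -0.98, beside 0.00 for all genes tested, and 9 members were called lower and 0 higher, against 1.45% lower over all genes. Of the 19, 13 entered the test through the intact group alone, so the median and the count lean toward lower values and are given as a description. Over members well above background on all 8 arrays the neuron median was -0.46 and not the lowest. It was -0.72 for cell cycle genes and -0.7 for smooth muscle genes of that kind. The called members included Prph, an intermediate filament of peripheral neurons, Gap43, a growth cone protein, and Uchl1, the neuronal ubiquitin hydrolase also known as PGP9.5. The list of enteric glia and receptors of the GDNF family gave a median of -0.33 over 15 tested members (22 listed), with 4 called lower. They included Ret, the receptor that enteric precursors need, Ngfr, the low-affinity neurotrophin receptor, and Sox10, the neural crest and glial transcription factor. Ret belonged to both lists.

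Prph was 7.66, 6.58, 7.92 and 5.47 in F + LFD and 5.15, 5.63, 4.40 and 4.26 in F(OVX) + LFD. F + LFD replicate 4 fell below F(OVX) + LFD replicate 2, and the other 3 intact arrays lay above all ovariectomized arrays. The log2 change was -2.05 ± 0.56 (SE, n = 4 per group), and the gene was well above background on all 4 intact arrays but 2 ovariectomized ones. Gap43 was 6.74, 6.12, 7.49 and 6.24 in F + LFD and 5.38, 5.19, 4.15 and 4.54 in F(OVX) + LFD. Its groups did not overlap, with a log2 change of -1.83 ± 0.37 (SE, n = 4 per group), but it too was well above background on 2 ovariectomized arrays. Elavl4, the neuronal RNA-binding protein HuD, was 6.88, 6.19, 6.75 and 6.67 in F + LFD and 5.78, 5.79, 5.49 and 5.50 in F(OVX) + LFD. Its groups did not overlap, and it had the smallest error of the called neuron genes, with a change of -0.98 ± 0.19 and signal well above background on 3 ovariectomized arrays.

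Ngfr was 7.32, 6.64, 8.67 and 7.76 in F + LFD and 6.41, 6.20, 5.85 and 5.51 in F(OVX) + LFD. Every ovariectomized array was lower than every intact array, with a log2 change of -1.60 ± 0.41 (SE, n = 4 per group), and 3 ovariectomized arrays were well above background. Ret was 6.38, 5.85, 6.63 and 5.49 in F + LFD and 5.22, 5.44, 2.09 and 4.92 in F(OVX) + LFD. These groups did not overlap either, but the 2.09 of the dim array stood far from the other 3, intact replicate 4 lay only just above ovariectomized replicate 2, and 2 ovariectomized arrays were well above background. Ret was not called without F + LFD replicate 1, 2 or 3 or F(OVX) + LFD replicate 4. Syt1, the calcium sensor of synaptic vesicles, was also separated at -1.47 ± 0.32, and was well above background on 3 ovariectomized arrays. Slc18a3, the vesicular acetylcholine transporter, Gal, the neuropeptide galanin, and Sox10 were called at -1.52, -1.48 and -1.54 with groups that overlapped, and each was well above background on 2 ovariectomized arrays.

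**Figure D1:**
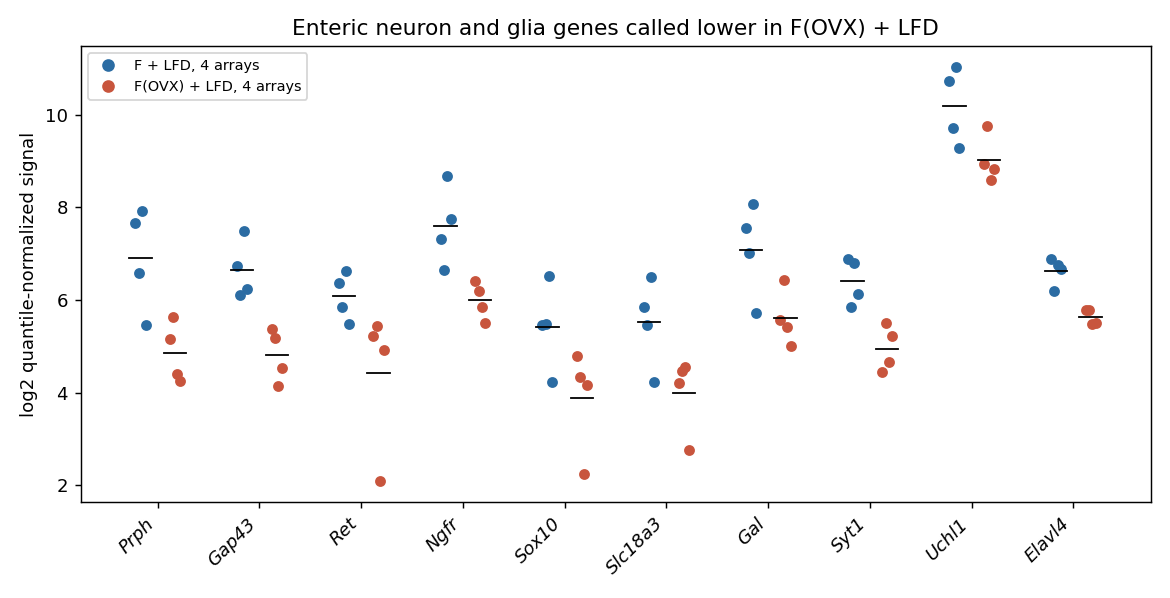
Log2 quantile-normalized signal (y axis) of 10 called enteric neuron and glia genes (x axis) on the 4 F + LFD (blue) and 4 F(OVX) + LFD (red) arrays, with lines at the group means. The groups are apart for Gap43, Ret, Ngfr, Syt1 and Elavl4, whereas in Prph and Uchl1 some arrays of the groups overlap.

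Signal near background limits these lists. Of the 19 tested neuron genes, 13 passed the filter through the intact group alone, as did 7 of 15 glia genes, against 4422 of 22031 over all genes, while 40 genes passed through the ovariectomized group alone. In the neuron list 6 members were well above background on all 8 arrays, with a median change of -0.46. Over the 17569 genes of that kind the median was 0.02, and 124 (0.706%) were called lower. Of the 6 neuron genes, 1 was called lower. That gene was Uchl1, at 10.73, 9.72, 11.04 and 9.28 in F + LFD and 8.93, 9.75, 8.59 and 8.84 in F(OVX) + LFD. The intact replicates 1 and 3 were the highest, the other intact arrays lay within the ovariectomized range, and the change was -1.16 ± 0.42. The 8 glia genes of that kind had a median of -0.02 with 0 called. Without the dim array 7 of 19 neuron genes were called lower, with a median of -0.92. The count was 5 without F + LFD replicate 1 or 3 or F(OVX) + LFD replicate 4. Members that were not called included Vip at -0.93, Nefl at -0.89, Tubb3 at 0.04 and Snap25 at 0.17 among neuron genes, and S100b at -0.71 and Gfra3 at 0.01 among glia and receptor genes. Chat and Nos1, which define the main classes of enteric motor neuron, were well above background on 1 and 0 intact and 2 and 1 ovariectomized arrays, and Gfap, a glial filament, on 2 and 0.

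Of the separated genes with a symbol that were called lower and measured on all 8 arrays, the largest change was in Penk, the enkephalin precursor, which enteric neurons make. It was 9.83, 8.99, 10.61 and 9.06 in F + LFD and 7.87, 8.66, 7.47 and 8.23 in F(OVX) + LFD. All ovariectomized arrays were lower, by 2.95-fold (log2 change -1.56 ± 0.40 SE, n = 4 per group). Ndrg4, which is expressed in enteric neurons, was 8.55, 7.78, 9.14 and 7.71 in F + LFD and 6.89, 7.42, 6.37 and 7.14 in F(OVX) + LFD. Its groups did not overlap, with a change of -1.34 ± 0.36. Ndn, the imprinted neuronal growth regulator necdin, was separated as well at -1.22 ± 0.35, and Nlgn2, a postsynaptic adhesion protein, at -0.78 ± 0.25. How many of the 319 genes called lower are neuronal was not counted. Stmn3 and Stmn4, regulators of microtubules, and Tmem179, named because they were called lower on both diets, had changes of -1.88, -1.54 and -2.45 with groups that overlapped, and were well above background on 3, 3 and 1 ovariectomized arrays. Fam155a, well above background on no ovariectomized array, was at least 1.26-fold lower (measured means 4.96 and 2.84). Fst and 4930558J18Rik, the other separated genes of that kind that were named, are given no fold, since their signal in F + LFD lay below the bound.

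Smooth muscle genes gave no call in the main fit. All 27 tested members had a lower mean in F(OVX) + LFD, with a median of -0.71, and the list means overlapped. In 1 fit of all 24 arrays, 4 of 27 were called lower (14.8%, against 1.15% of all genes). Without F + LFD replicate 4, 9 of 28 were called lower (32.1%, against 1.60% of all genes). Without F + LFD replicate 3, 0 were called and the median was -0.35. The mean of the list was 11.24, 10.92, 12.38 and 10.58 in F + LFD and 10.44, 10.94, 9.87 and 10.97 in F(OVX) + LFD. The highest of the 8 arrays was F + LFD replicate 3 and the lowest F(OVX) + LFD replicate 3, which were also the highest and lowest for the neuron list, at 7.98 and 5.95. With the smooth muscle mean as a covariate 4 of 19 neuron genes were called, with a median of -0.39, and without F + LFD replicate 3 there were 5, with a median of -0.54. Acta2 and Des, contractile and filament genes of muscle, had changes of -0.60 ± 0.41 and -1.17 ± 0.57. The part of the amount of muscle wall in the differences between neuron genes was not tested.

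**Figure D2:**
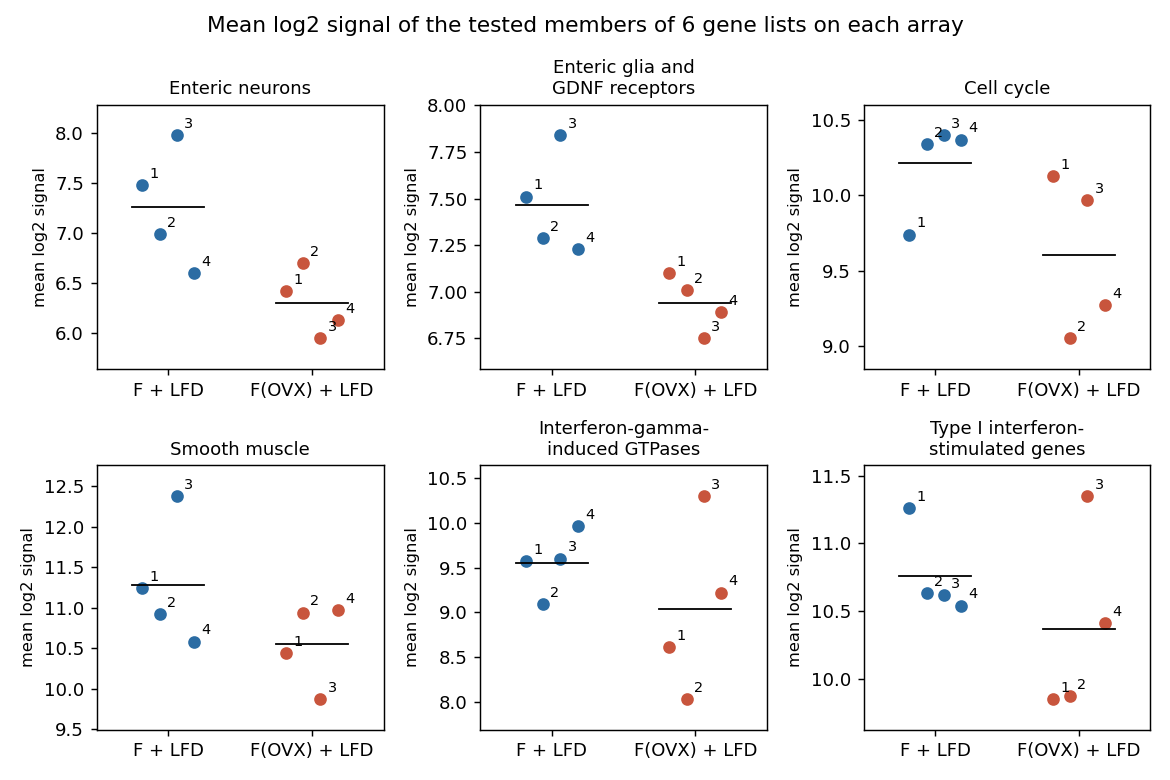
Mean log2 signal of the tested members of 6 gene lists (y axis of each panel, on its own range) on each F + LFD (blue) and F(OVX) + LFD (red) array, numbered by replicate, with lines at the group means. The glia means do not overlap between groups, the neuron means do so at 6.60 (F + LFD replicate 4) and 6.70 (F(OVX) + LFD replicate 2), the smooth muscle means overlap more widely, and F(OVX) + LFD replicate 3 is the highest array for both interferon lists. Of the 15 glia and 19 neuron members averaged, 7 and 13 passed the filter through the intact group alone, so these means lean toward lower values in F(OVX) + LFD.

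Other genes of the stroma gave few calls. Fibroblast and matrix genes had a median of -0.46 over 39 tested members, with 0 called. Of 13 tested adipocyte genes (median -0.47), 2 were called lower (against 1.45% over all genes): Lpl, the lipase that frees fatty acids from lipoproteins, and Aoc3, an amine oxidase of fat and smooth muscle. The median was 0.08 without F(OVX) + LFD replicate 4. Lpl was 9.13, 8.62, 8.63 and 8.93 in F + LFD and 8.17, 7.65, 7.78 and 8.05 in F(OVX) + LFD. These ranges were tight and did not overlap, and Lpl was 1.89-fold lower (log2 change -0.92 ± 0.19 SE, n = 4 per group). Of the defining fat genes, Adipoq and Plin1 did not pass the filter, and Cfd ranged from 5.34 to 10.67 in F + LFD and from 2.05 to 10.08 in F(OVX) + LFD. Fibin, a secreted protein, and Fndc1, a matrix-associated protein, were separated at -0.99 ± 0.31 and -0.91 ± 0.28. The growth factors Tgfb2 and Tgfb3 were called lower at -0.93 and -0.61, and Rgs5, a pericyte gene, at -0.74, each with groups that overlapped, and Tgfb2 was well above background on 3 ovariectomized arrays.

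Nkd1, a Wnt target that restrains Wnt signaling, was 7.01, 7.24, 7.69 and 8.84 in F + LFD and 5.78, 6.59, 6.43 and 6.63 in F(OVX) + LFD. All ovariectomized arrays were below all intact ones, by 2.52-fold (log2 change -1.33 ± 0.40 SE, n = 4 per group). It was the sole member of the stem cell and Wnt list called lower, and Msi1, an RNA-binding protein of intestinal progenitors, was the sole member called higher, at 0.73. Each was 3.23% of the 31 tested members, against 1.45% called lower and 0.477% called higher over all genes. Lgr5, the stem cell receptor, was 0.22 higher and Myc, a Wnt target and growth regulator, 0.09 higher without a call, and the median of the 31 tested members was -0.14. Rnf150, a gene with a RING domain, was 9.14, 8.88, 9.02 and 8.79 in F + LFD and 8.34, 7.43, 8.30 and 7.84 in F(OVX) + LFD. The intact arrays lay close together and above every ovariectomized array, with a change of -0.98 ± 0.22. Rasgrf2, an exchange factor for Ras, was separated at -1.08 ± 0.31.

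Some mitotic genes were called lower, in a number that depended on the fit and on single arrays. In the cell cycle and proliferation list all 39 tested members (40 listed) had a lower mean in F(OVX) + LFD, with a median change of -0.72. Of these, 13 were called lower (33.3%, against 1.45% over all genes), all measured on all 8 arrays. Between groups 0 of the 39 were separated. The count was 0 in 1 fit of all 24 arrays, 3 by the methods' t-test and 4 when replicate numbers were blocked. The 13 were genes of mitosis or of entry into it: Top2a, Cdc20, Prc1, Mki67, Ccnb2, Aurkb, Kif11, Cenpf, Cenpe, Cdk1, Foxm1, Nusap1 and Kif20a. The listed genes of DNA replication were not called, with changes of -0.54 for Mcm3, a subunit of the replicative helicase, -0.17 for Pcna, the polymerase clamp, and -0.12 for Tyms, which makes thymidylate.

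Top2a, the topoisomerase that untangles chromosomes in mitosis, was 10.98, 11.37, 11.87 and 11.68 in F + LFD and 11.16, 10.19, 10.63 and 10.14 in F(OVX) + LFD. F(OVX) + LFD replicate 1 lay within the intact range and the other 3 below it. The change was -0.95 ± 0.28, or 1.93-fold lower, with an exact permutation p of 0.0571. Mki67, the Ki-67 proliferation antigen, was 11.91, 12.19, 12.95 and 12.40 in F + LFD and 12.44, 11.05, 11.63 and 11.06 in F(OVX) + LFD. F(OVX) + LFD replicates 2 and 4 were low, replicate 1 was higher than 3 of the intact arrays, and the change was -0.82 ± 0.35 with an exact permutation p of 0.114. The mean of the list was 9.74, 10.34, 10.40 and 10.37 in F + LFD and 10.13, 9.05, 9.97 and 9.27 in F(OVX) + LFD. The count of 13 rested on single arrays: it became 2, 1 and 1 without F + LFD replicates 2, 3 and 4, 1 without F(OVX) + LFD replicate 2 or 4, and 20, 24 and 19 without F + LFD replicate 1, F(OVX) + LFD replicate 1 and F(OVX) + LFD replicate 3. The median change stayed negative throughout, from -0.44 to -0.91.

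Genes of mitosis are known to share promoter elements, the CCAAT box bound by NF-Y and the cell cycle homology region bound through the MuvB complex. Promoter sequences from RefSeq (GRCm38.p6), 300 bases that span the start of a gene, were available for 32 members of the list, and were searched on both strands for the letters of the first, CCAAT, and of the latter, TTTGAA. The first occurred in 25 of the 32 (78.1%) and in 9 of the 10 called members with a promoter, against 37.9% of all 27025 promoters. The latter occurred in 15 (46.9%) and in 8 of those 10, against 18.1% of all. A match is a description of the letters, not a bound site. The list was made of cell cycle genes, and its called members were genes of mitosis or of entry into it. The shares therefore describe these genes and not the ovariectomy. Both motifs occurred in 8 of the 10 called members, and neither in Nusap1, whereas Cenpe held 1 CCAAT box alone. The promoters of 4 of these 8 are printed as examples of how the letters lie. Each reads 5′ to 3′ along the gene, with both motifs, read on either strand, in capitals. They lie at chr11:99024140-99024439 for Top2a, chr4:118437294-118437593 for Cdc20, chr7:135716330-135716629 for Mki67 and chr9:70421505-70421804 for Ccnb2, all on the minus strand.
Top2a: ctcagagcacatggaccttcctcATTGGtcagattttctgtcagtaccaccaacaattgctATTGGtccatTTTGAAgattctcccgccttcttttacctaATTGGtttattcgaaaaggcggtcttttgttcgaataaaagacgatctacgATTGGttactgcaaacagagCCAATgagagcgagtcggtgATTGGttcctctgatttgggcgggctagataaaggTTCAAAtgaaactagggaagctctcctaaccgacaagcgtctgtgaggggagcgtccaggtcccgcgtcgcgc
Cdc20: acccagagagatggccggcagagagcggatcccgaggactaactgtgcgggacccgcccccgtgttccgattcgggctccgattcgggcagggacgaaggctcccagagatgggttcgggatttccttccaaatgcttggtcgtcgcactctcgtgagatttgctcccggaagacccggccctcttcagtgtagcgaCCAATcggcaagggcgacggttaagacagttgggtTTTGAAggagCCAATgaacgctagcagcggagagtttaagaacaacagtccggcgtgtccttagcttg
Mki67: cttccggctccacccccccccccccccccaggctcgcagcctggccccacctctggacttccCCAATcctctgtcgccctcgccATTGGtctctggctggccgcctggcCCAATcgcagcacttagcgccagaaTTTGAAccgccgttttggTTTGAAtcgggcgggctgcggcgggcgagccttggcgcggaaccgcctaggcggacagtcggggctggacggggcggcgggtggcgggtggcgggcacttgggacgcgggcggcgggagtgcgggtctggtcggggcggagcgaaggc
Ccnb2: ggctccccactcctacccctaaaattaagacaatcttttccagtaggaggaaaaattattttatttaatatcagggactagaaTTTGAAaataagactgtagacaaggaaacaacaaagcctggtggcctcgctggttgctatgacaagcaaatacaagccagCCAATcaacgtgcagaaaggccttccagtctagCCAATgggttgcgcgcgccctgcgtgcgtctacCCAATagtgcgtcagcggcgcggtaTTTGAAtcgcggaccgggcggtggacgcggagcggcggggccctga
Top2a held 6 CCAAT boxes and 2 cell cycle homology regions, Mki67 and Ccnb2 held 3 and 2 each, and Cdc20 held 2 and 1. Cdc20, the activator of the anaphase-promoting complex, and Ccnb2, a mitotic cyclin, changed by -0.95 ± 0.37 and -0.81 ± 0.35, and in both F(OVX) + LFD replicates 2 and 4 were the 2 lowest arrays.

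Interferon genes depended on the dim array. All 18 tested genes of the interferon-gamma-induced GTPase list had a lower mean in F(OVX) + LFD (median -0.46), as did 33 of 36 type I interferon-stimulated genes (median -0.37), but 0 of either were called. Iigp1, a GTPase that attacks vacuoles of intracellular pathogens, was 11.86, 11.53, 11.13 and 12.29 in F + LFD and 10.16, 8.87, 12.95 and 10.74 in F(OVX) + LFD. Isg15, a ubiquitin-like protein induced by interferon, was 13.34, 12.54, 11.97 and 12.12 in F + LFD and 10.89, 10.31, 13.66 and 11.70 in F(OVX) + LFD. For both, F(OVX) + LFD replicate 3 was the highest of the 8 arrays and the other 3 ovariectomized arrays were lower than all intact ones. Without that array 10 of 18 GTPase-list genes (median -0.90) and 19 of 36 type I genes (median -0.70) were called lower, against 1.92% of all genes, with changes of -1.78 for Iigp1 and -1.53 for Isg15 against -1.02 ± 0.75 and -0.85 ± 0.68 with it. Every array was left out in turn in the same way. Without F(OVX) + LFD replicate 2 the medians were nearer zero, at -0.13 for the GTPase list and -0.26 for the type I list, with 0 called in either. T and NK cell genes had 0 of 27 called with all arrays and 5 without F(OVX) + LFD replicate 3. Among immune genes called with all 8 arrays, Ccr2, the monocyte chemokine receptor, was -1.16, with 2 ovariectomized arrays well above background, and Jchain, the joining chain of secreted antibodies, -0.59, both with overlapping groups.

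The genes called higher were fewer, and 10 with a symbol were separated between the groups and measured on all 8 arrays. Nxpe2, a member of a family of secreted or membrane proteins, was 8.64, 9.03, 9.01 and 8.70 in F + LFD and 10.56, 10.59, 9.53 and 10.06 in F(OVX) + LFD. All ovariectomized arrays were higher, by 2.53-fold (log2 change 1.34 ± 0.25 SE, n = 4 per group). Cldn14, a tight junction claudin, was 7.13, 7.64, 7.89 and 7.86 in F + LFD and 8.39, 9.39, 8.52 and 8.60 in F(OVX) + LFD. Its groups did not overlap, with ovariectomized replicate 2 the highest, and it was 2.13-fold higher at 1.09 ± 0.27. It was the sole called gene of 23 tested tight junction genes (4.35%, against 0.477% called higher over all genes), whose median was 0.00.

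BC024139 was 6.28, 7.20, 6.81 and 6.99 in F + LFD and 7.34, 8.36, 8.05 and 7.54 in F(OVX) + LFD, a change of 1.0 ± 0.28. Il22ra1, the epithelial subunit of the receptor for IL-22, was 5.24, 5.36, 5.02 and 5.37 in F + LFD and 5.45, 6.02, 6.49 and 5.66 in F(OVX) + LFD. Intact and ovariectomized arrays came close, at 5.37 and 5.45, but did not overlap, and the change was 0.66 ± 0.23, a call lost without replicate 3 of either group. Another Il22ra1 probe that passed the filter, well above background on 3 ovariectomized arrays, differed by 0.28, with no test made of it. Pax8, a transcription factor of the thyroid and kidney, was 6.52, 6.56, 6.63 and 6.27 in F + LFD and 7.01, 7.20, 7.09 and 7.09 in F(OVX) + LFD. This was a small but even difference of 0.60 ± 0.14, near the 1.5-fold limit, and it was not called without F + LFD replicate 4 or F(OVX) + LFD replicate 2. The other 5 were 1700022A21Rik at 1.34, Fam187b at 0.77, Smim24 at 0.71, Gm9465 at 0.61 and Slc25a36, a mitochondrial nucleotide carrier, at 0.60.

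Reg4, a lectin of deep crypt secretory cells, was called higher with groups that overlapped. It was 11.22, 11.51, 14.38 and 13.54 in F + LFD and 13.72, 13.89, 14.79 and 14.75 in F(OVX) + LFD. The intact replicates 1 and 2 were low and 3 and 4 near the ovariectomized arrays, giving 1.63 ± 0.70 with an exact permutation p of 0.114. The call was lost when any of 6 arrays was left out, all but F + LFD replicates 3 and 4. Tpsb2, a mast cell tryptase, was called higher at 0.83 ± 0.33, again with overlapping groups.

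**Figure D3:**
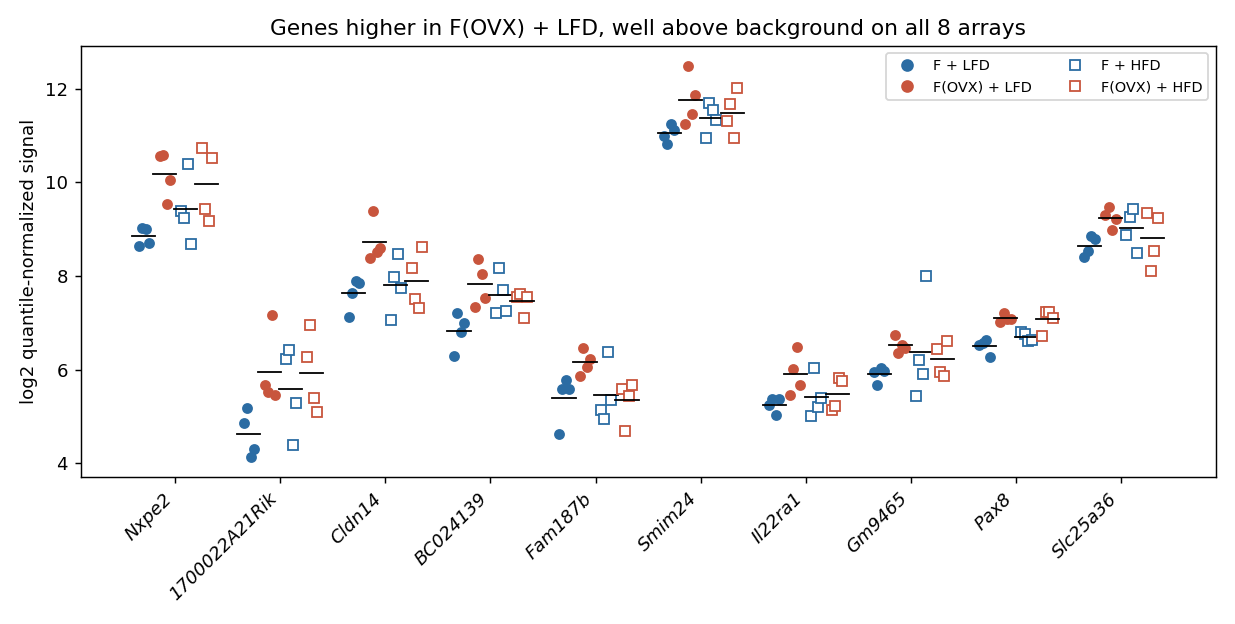
Log2 quantile-normalized signal (y axis) of the 10 named genes called higher with separated groups and measured on all 8 arrays (x axis), on LFD (filled) and HFD (open) arrays of intact (blue) and ovariectomized (red) mice, with lines at the means. The filled red points lie above the filled blue points for each gene, while the open points of the HFD groups overlap in all 10.

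The hormone pathway itself showed few differences. Esr1 was 8.31, 7.18, 7.76 and 7.06 in F + LFD and 6.85, 6.85, 7.65 and 8.63 in F(OVX) + LFD, and Esr2 was 10.65, 10.38, 10.62 and 11.13 against 10.65, 10.71, 10.25 and 10.55. Both overlapped throughout, with changes of -0.08 ± 0.44 and -0.16 ± 0.19 (SE, n = 4 per group) and exact permutation p of 0.8 and 0.429. Another Esr1 probe, well above background on all 8 arrays, differed by -0.38, with no test made of it. Gper1, the membrane estrogen receptor, changed by 0.07, and Pgr, the progesterone receptor, was well above background on no array. Of the 11 tested sex steroid receptor and cofactor genes 0 were called, and of the 30 tested estrogen-responsive genes 1 was called lower, 3.33% against 1.45% over all genes. It was Padi2, a peptidylarginine deiminase, at 6.82, 7.08, 6.72 and 6.70 in F + LFD and 5.85, 5.61, 6.78 and 5.78 in F(OVX) + LFD. The dim replicate 3 lay within the intact range and the other 3 well below it, for a change of -0.82 ± 0.26 and an exact permutation p of 0.0857. Greb1, a direct estrogen target in breast and uterus, changed by -0.11 ± 0.34.

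The calcium genes S100g, a calcium-binding protein, and Trpv6, the apical calcium channel, varied widely between animals. S100g was 2.62, 4.01, 9.73 and 8.08 in F + LFD and 8.11, 10.25, 7.40 and 9.07 in F(OVX) + LFD, and Trpv6 was 4.53, 4.61, 7.94 and 8.20 against 9.67, 6.06, 6.80 and 9.30. S100g was well above background on 2 of the 4 intact arrays. In both genes F + LFD replicates 1 and 2 were the lowest arrays, while the rest overlapped between groups. The changes of 2.60 ± 1.51 and 1.64 ± 1.14 gave an exact permutation p of 0.257 each. The palindromic estrogen response element GGTCANNNTGACC was found in 0 of 173 promoters of genes called lower and 0 of 39 of genes called higher, against 18 (0.0666%) of all 27025 promoters. Its shorter core GGTCA, searched on both strands and contained in the palindrome, occurred in 58 (33.5%) and 18 (46.2%) of them, against 40.2% of all. No match says only that these letters are not in this window.

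Epithelial lists gave no call. The median change of the 23 epithelial genes was 0.04, of 27 goblet cell genes -0.15 and of 30 genes of absorptive colonocytes 0.08, with 0 called in each. With each array scaled to its 75th percentile the epithelial median was 0.24, and 3 of the 23 genes were lower. Muc2, the main mucin of the mucus layer, was between 16.77 and 17.05 in F + LFD and was 16.94, 16.43, 16.56 and 16.59 in F(OVX) + LFD. Of the ovariectomized arrays 3 were lower than all intact arrays and 1 was within their range, and the change was -0.29 ± 0.16 with an exact permutation p of 0.0857. It was 0.09 with the 75th-percentile scaling, and another Muc2 probe, well above background on all 8 arrays, differed by -0.75, with no test made of it. The inflammatory cytokine genes Tnf and Ccl2 changed by -0.10 ± 0.58 and -0.14 ± 0.60, and Il6 was well above background on no array of either group. Ribosomal protein genes had a median of -0.02, or 0.32 with the 75th-percentile scaling, where 0 of 35 were lower, and 0 were called with either.

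**Figure D4:**
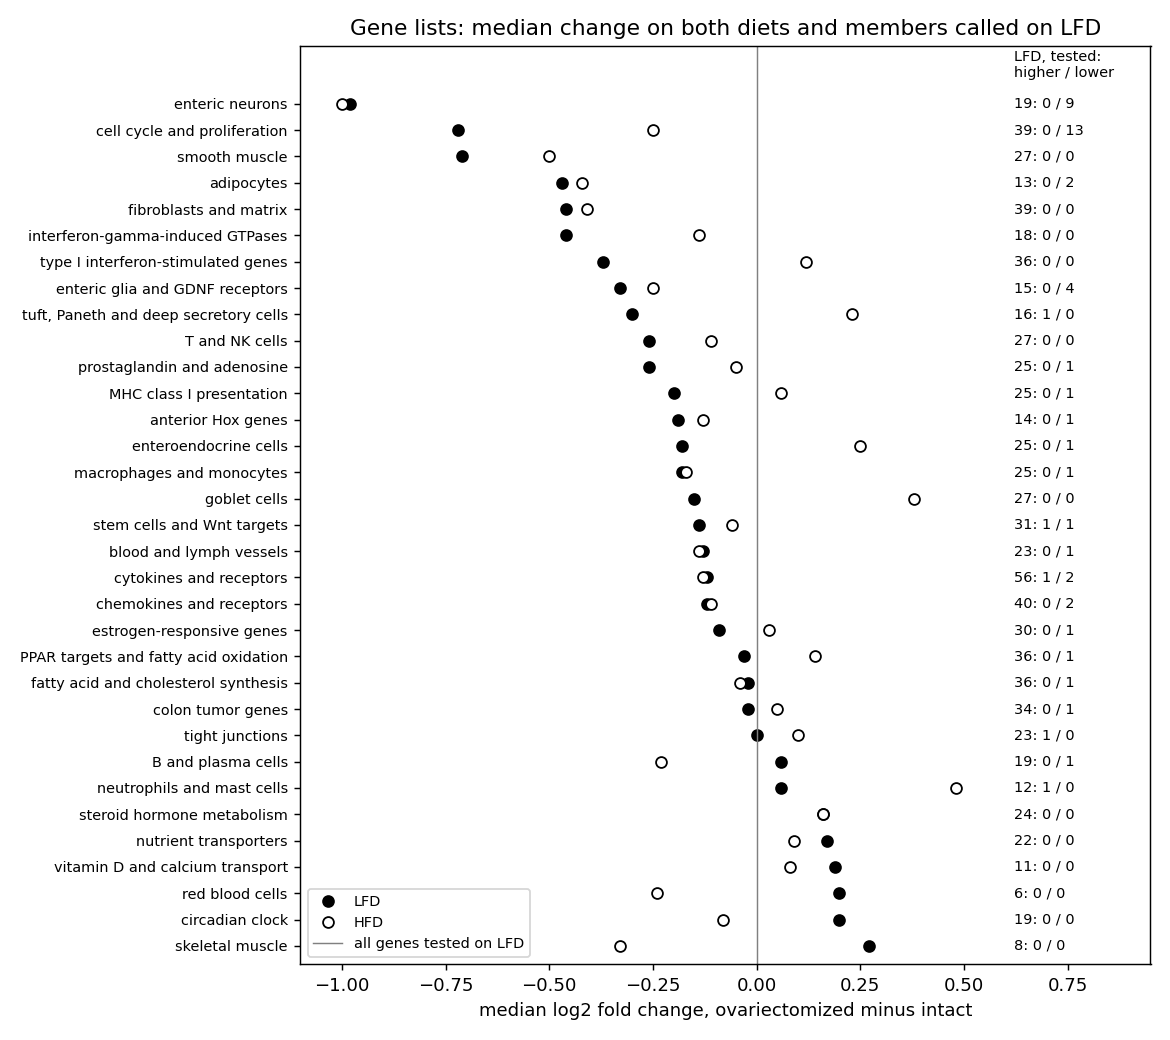
Median log2 fold change, ovariectomized minus intact (x axis), of 33 gene lists (y axis, in order of their LFD median) on LFD (filled) and HFD (open), with the members tested and called on LFD at the right and a line at the LFD median of all genes, 0.00. The neuron list lies near -1 on both diets, whereas the cell cycle and interferon lists are nearer 0 on HFD.

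On HFD, 612 of 19713 genes were called, 206 higher (1.04%) and 406 lower (2.06%) in F(OVX) + HFD, and again 0 passed the adjusted threshold, with 1493 at an unadjusted p under 0.05. Of the 19611 genes tested on both diets, 51 were called lower on both, which is 21.9% of the 233 called lower on LFD and 13.4% of the 381 called lower on HFD. A further 5 were called higher on both (6.58% of 76 and 2.43% of 206), and 0 were called in opposite directions. Of the 233 genes called lower on LFD, 200 also had a lower mean in F(OVX) + HFD, against 48.8% of all genes, and their median HFD change was -0.43 beside 0.01 for all. Of the 76 called higher, 62 had a higher mean, with a median of 0.27. The groups on the 2 diets were separate animals but the intact and ovariectomized arrays lay on the same slides in both. On either diet a gene can pass the filter through the intact group alone. The counts of shared lower genes therefore lean upward, and the 48.8% of all genes is not matched for this. With every array required to be well above background, 14 genes were called in the same direction on both diets, against 56 in the main fit.

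In the neuron list 12 of 21 tested members were called lower on HFD, against 2.06% of all genes, with a median of -1.0. Of the 21, 9 passed the filter through the intact group alone, and of the 12 measured on all 8 HFD arrays 6 were called lower. The share called lower over all genes measured on all 8 HFD arrays was not counted, so the 6 are given as a description. The changes were -1.82 ± 0.73 for Prph, -1.27 ± 0.40 for Gap43, -1.15 ± 0.48 for Uchl1 and -0.94 ± 0.36 for Elavl4. Penk was -1.72 ± 0.60 and Ndrg4 -1.13 ± 0.38, and Gdf10, a growth factor of the BMP family, and Fhod3, a formin that assembles actin, were called lower on both diets, at -1.59 and -1.42 on LFD, where 3 and 2 ovariectomized arrays were well above background, and -1.63 and -1.97 on HFD. No member of the neuron list was called for a difference of the change between diets, and the estimated difference for Prph was -0.23 ± 1.0. The smooth muscle list had a median of -0.50 on HFD, with 4 of 27 members called lower.

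Several other named genes were nearer 0 on HFD, but the difference itself was called for few. Of the cell cycle genes 0 were called on HFD and the median was -0.25, with -0.13 ± 0.45 for Top2a and a difference between diets of -0.81 ± 0.57. Lpl was -0.15 ± 0.30 on HFD, Nkd1 -0.47 ± 0.16, Rnf150 -0.20 ± 0.26, Nxpe2 0.54 ± 0.45 and Cldn14 0.10 ± 0.36. By the same fold and unadjusted p, 336 of 22133 genes (1.52%) differed in the change between diets, including 50 of the 424 DEGs, and by limma with Benjamini-Hochberg adjustment 0 did, with a smallest adjusted p of 1 and 462 genes at an unadjusted p under 0.05. The largest such difference among the named separated genes called for it was in BC024139, 1.13 ± 0.38, with a change of 1.0 on LFD and -0.13 on HFD.

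**Figure D5:**
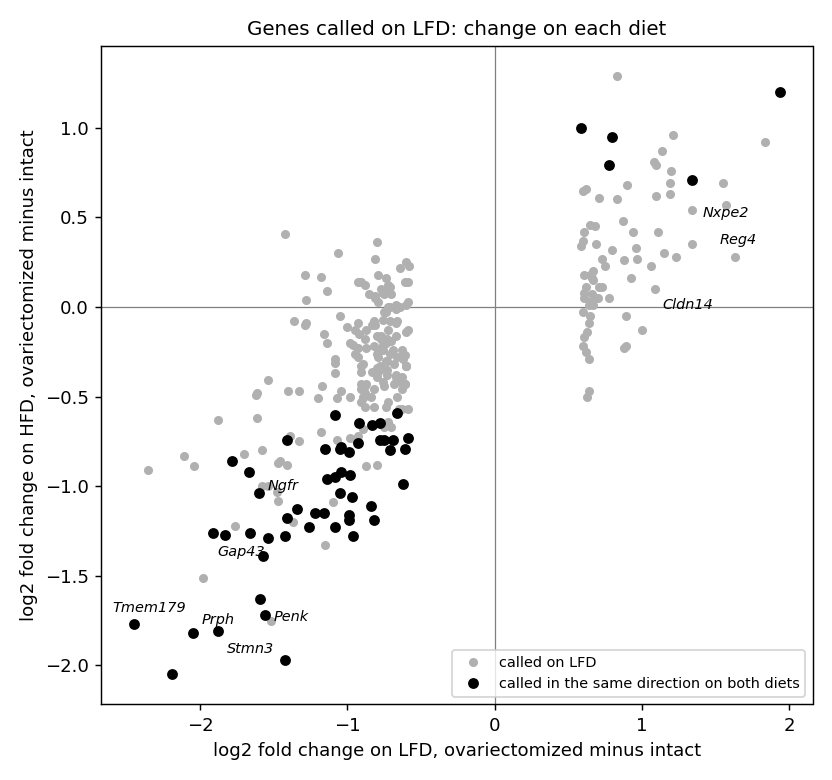
Log2 fold change, ovariectomized minus intact, on HFD (y axis) against LFD (x axis) for the genes called on LFD and tested on both diets, black where called in the same direction on both. Prph, Tmem179 and Stmn3 lie at the lower left with changes of at least -1.77 in size on both diets, while Reg4 and Cldn14 are at 0.28 and 0.10 on HFD.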

How the data were processed

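The authors labelled 100 ng of total RNA per sample with Cy3, accepted at an RNA integrity number of 7 or more, and hybridized it to 1-color Agilent mouse arrays. The deposited values are spot intensities (processed signal, background-subtracted, not normalized between arrays) with flags for spots well above background, saturated or outlying, from Agilent Feature Extraction 11.0.1.1 per the submitters' processing notes. No spot was saturated on the arrays used. Groups were taken from the sample titles, and all 24 arrays were read, with 0 columns of unknown samples.

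Of 62976 spots, 59305 were not controls and stood for 56605 probes. Outlier spots were set to missing, log2 values of the processed signal were brought to common quantiles across all 24 arrays, and spots of a probe were averaged. A probe was named by matching its accession to RefSeq genes (GRCm38.p6), which gave 32994 probes (58.3%) a symbol, and no gene coordinates were taken from the arrays. Each of 45616 gene names took the probe with the highest mean signal over the series, and entered a test where F + LFD or F(OVX) + LFD, or the matching HFD groups, had it well above background on 4 of 4 arrays. Of 49 other probes of named or listed genes that passed the filter, 5 differed in the opposite direction, among them one for Tnf.

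Groups were compared with limma 3.58.1 (lmFit, eBayes) under R 4.3.3 on the 8 arrays of a diet, the difference between diets on the 16 female arrays, and single genes by exact two-sided permutation over 70 assignments. Errors are SE, with n = 4 arrays per group, which limits every difference. The labels do not link arrays to litters or cages. The text names the 12 separated genes with the largest change in each direction that were measured on all 8 arrays, where there were so many, up to 3 given as bounds, hormone and inflammation genes, up to 4 called members of each list, and genes shared by or differing between diets. Chat, Nos1, Gfap, and a few further list members were named after their values were seen. A few genes that the rule would name are not reported here. The comparison and the 50 gene lists were chosen with earlier results of these data known. The scripts were tested on simulated data. Alternatives were scaling to the 75th percentile, normexp background correction (offset 50), quantile normalization of the compared arrays alone, other filters, the methods' t-test, a replicate block, a fit of all 24 arrays, all probes of a gene, outlier spots kept, covariates, and each array left out in turn.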

Additional observations from a re-analysis of the deposited data

Results flagged for a closer look

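Of 222 sets of 4 values looked at (named genes and list means in each group), 11 held a value that stood far from the other 3, by Dixon's test at a critical value of 0.829, and chance alone flags about 1 in 20 such sets. In F(OVX) + LFD these were 1700022A21Rik at 7.16 and Ret at 2.09, both on replicate 3, the array with the lowest signal, and the means of the bile acid and xenobiotic metabolism list (10.59) and of the NF-kappaB subunit and inhibitor list (10.07). In F + LFD they were Fam155a at 5.63, Hoxb5, an anterior patterning gene called lower in F(OVX) + LFD but well above background on 1 array there, at 4.25, and the list means of type I interferon-stimulated genes at 11.26, cell cycle genes at 9.74, fatty acid and cholesterol synthesis at 10.97, adipocytes at 7.97 and tight junctions at 10.61. The cell cycle and interferon values were those of F + LFD replicate 1.

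Of 161 named genes tested for a difference of the ovariectomy change between diets, 7 passed at 1.5-fold and an unadjusted p under 0.05, and all had an adjusted p of 1 by limma with Benjamini-Hochberg adjustment. Over all genes 336 of 22133 (1.52%) passed. Some of the 161 were named because this difference was large, so the count of 7 leans high. BC024139 differed by 1.13 and Slc25a36 by 0.82, both higher after ovariectomy on LFD. Rnf150 differed by -0.78 and H2-T24, a class I-like gene that was called lower on LFD and was well above background on 2 ovariectomized arrays, by -1.03. Slc10a2, the ileal bile acid transporter, differed by 2.54, with a change of 0.70 ± 0.62 on LFD and -1.84 ± 0.51 on HFD. Egr1, an immediate-early transcription factor, differed by -1.66, with -0.26 ± 0.34 and 1.40 ± 0.29. Thrsp, a regulator of lipid synthesis, differed by 1.02, with 0.30 ± 0.30 and -0.72 ± 0.29.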

How the results depend on the processing

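Of the 29 settings, 21 apply to the LFD contrast. Under these no named gene called on LFD changed direction, and 0 genes on LFD passed an adjusted p of 0.05. Some list medians changed sign: the adipocyte median ranged from -0.94 to 0.08 and that of sex steroid receptors from -0.12 to 0.16. Of the values for single genes, 2986 kept their call or lack of one, 290 lost a call and 32 gained one. Of the 2986, 2062 were of genes not called in the main fit, which had no call to lose. The count of 424 DEGs on LFD (105 higher, 319 lower) was 160 (36 and 124) with normexp background correction, 829 (305 and 524) with no filter, 218 with 131 lower when every array had to be well above background, 220 (60 and 160) by the methods' t-test, and 703 (189 and 514) with anterior Hox genes as a covariate. The 612 DEGs on HFD became 238 with normexp, 1213 with no filter, 366 by the t-test and 389 in 1 fit of all 24 arrays. The 56 genes called on both diets became 21 with normexp, 14 with the stricter filter, 13 by the t-test, 25 in the 24-array fit, and 7 with the smooth muscle covariate. The 336 differences between diets became 165 with normexp, 715 with no filter and 203 with the stricter filter. The 9 called neuron genes became 1 with the stricter filter, 5 by the t-test and in the 24-array fit, and 4 with the Hox, smooth muscle or signal covariate. The 4 glia genes became 1 with normexp, 0 with the stricter filter, and 2 with no filter, by the t-test and with each covariate. The 13 cell cycle genes became 8 with no filter, 3 by the t-test and 0 in the 24-array fit. The smooth muscle covariate and the signal covariate (percent of probes well above background) were chosen after seeing the data, as were the counts of these lists, and the number of genes called higher became 181 and 240 with them. The causes of these changes were not tested, beyond the number of genes that each filter lets in.

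With each array left out in turn, LFD DEGs ranged from 353 to 669, genes higher from 88 to 240, genes lower from 242 to 437, HFD DEGs from 555 to 958, genes called on both diets from 28 to 108, differences between diets from 240 to 582, and genes past the adjusted threshold from 0 to 0. Neuron genes ranged from 5 to 12, glia genes from 2 to 6 and cell cycle genes from 1 to 24. The LFD DEGs moved by over 1.5 times without F + LFD replicate 2 (665) and F(OVX) + LFD replicate 3 (669), the genes higher without these (228 and 240) and without F(OVX) + LFD replicates 1 (160) and 4 (168), and the HFD DEGs without F + HFD replicate 4 (958). Genes called on both diets did so without F + LFD replicate 3 (29), F + HFD replicate 1 (32) and F(OVX) + HFD replicates 1 (28), 2 (108) and 4 (33), and differences between diets without F + LFD replicate 3 (571), F + HFD replicate 4 (537) and F(OVX) + LFD replicates 1 (582) and 4 (520). The neuron count was 5 without F + LFD replicate 1 or 3 or F(OVX) + LFD replicate 4, and the glia count 2 without any of these or F + LFD replicate 2. Penk, Ndrg4, Nkd1, Ndn, Rnf150, Lpl, Nxpe2, Cldn14 and BC024139 kept their calls under all 21 settings that apply to the LFD contrast, and Gap43 and Ngfr under all 20 in which they were tested. Prph kept its call under 19 of 20, Ret under 9 of 20, Sox10 under 8 of 20, Reg4 under 11 of 21, Tpsb2 under 9 of 21, and Mki67 under 8 of 21, and Top2a lost its call in the 24-array fit alone.

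With the replicate number as a block, 351 DEGs were called on LFD and 4 of the cell cycle genes. The numbers did not pair the arrays: deviations of same-numbered arrays correlated at 0.05, -0.22, -0.18 and 0.08, and each ovariectomized array correlated best with another number.

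Signal limits the neural and other low genes, since F(OVX) + LFD replicate 3 had 40.5% of probes well above background. Slide cannot be told apart from surgery, the comparison has 4 arrays a group, and no gene passed the adjusted threshold.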
